A study of Rattus norvegicus with 15 samples.

Results

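Chemokines and their receptors were examined in rat liver, taken as every protein coding gene of the count table whose symbol is that of a CC, CXC, CX3C or XC chemokine, of a conventional receptor for these, or of an atypical chemokine receptor. The rule found 55 genes among 22050 protein coding genes, and 32623 genes of all kinds were listed. They comprise 34 ligands, 18 conventional receptors and 3 atypical receptors. Of the 55 genes, 37 had enough reads for a test (26 ligands, 8 receptors and all 3 atypical receptors), and 18 did not, with Cxcr1 at no count in any sample. Genes for Ccr2 and Ackr1, a monocyte receptor and an atypical receptor, were not analysed here.

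Chemokines are small secreted proteins that steer leukocytes along a gradient by binding G protein-coupled receptors. Inflammatory chemokines are induced in injured tissue and draw monocytes, neutrophils or lymphocytes, whereas homeostatic chemokines such as CCL19, CCL21, CXCL12 and CXCL13 place cells in lymphoid organs and bone marrow. Atypical receptors bind chemokines without G protein signalling and remove them. In chronic liver injury, Kupffer cells, sinusoidal endothelium, stellate cells and bile duct cells are all known sources.

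The study asked which genes in a cirrhotic liver respond to eplerenone, a blocker of the mineralocorticoid receptor. Male Wistar rats inhaled carbon tetrachloride (CCl4), a hepatocyte toxin, for 12 weeks with phenobarbital (0.35 g/L) in the drinking water. This group is called cirrhosis, and a further group, cirrhosis & eplerenone, had the same treatment with eplerenone at 100 mg/kg per os from week 8 to week 12. Livers of CCl4-treated rats were taken 7 to 10 days after the last inhalation, and control rats had no treatment. Phenobarbital therefore goes with CCl4 in both treated groups, and the effects of these agents cannot be told apart. The study states that livers were picked for sequencing by how well cirrhosis induction or eplerenone treatment had worked. Poly(A) RNA of whole liver was sequenced, and 14 rats entered the analysis, with 4 controls (replicates 2 to 5), 5 with cirrhosis and 5 with cirrhosis & eplerenone. Control replicate 1 was not analysed here.

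Each library held 16157491 to 21574767 counted reads. Levels are given as FPM, fragments per 1000000 counted reads after the scaling by trimmed mean of M values (TMM) that makes libraries comparable, so that 3 counts stand for 0.121 to 0.191 FPM. FPM is not divided by gene length, and levels are compared between rats and never between genes. Over the 14417 genes tested, those whose false discovery rate (FDR) passed the 0.05 threshold by edgeR and by DESeq2 alike are termed DEG, for differential expression. The log2FC is the fitted log2 fold change of edgeR, with its standard error (SE). A pair of libraries stood apart from their groups. On the first principal component, with 66.6% of the variance, controls lay at 44.3 to 50.6 and cirrhosis replicates 1 to 4 at -47.7 to -38.0, while cirrhosis replicate 5 lay at 13.03. Among cirrhosis & eplerenone rats, replicate 3 lay at -42.6 and the others at -18.5 to 26.8.

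In cirrhosis, 15 of the 37 tested genes were DEG against control, 13 higher and 2 lower. This is 40.5% of them, beside 20.6% of all protein coding genes tested (13.8% higher, 6.72% lower). The median log2FC of the 37 genes was 1.14, beside -0.01 over all genes tested. For Ccl17 and Ccl20, which had no control read, lower bounds (log2 4.25 and 3.96) lie above this median, so using them cannot move it. These figures cover tested genes only: a gene that is near 0 in control reached the test through the group in which it is high. With at least 10 counts in every sample, a filter that drops such genes, the median was 0.38 over 18 tested genes. Over all protein coding genes it was then -0.002. The rise included lymphoid homing chemokines (Ccl21, Ccl19), monocyte and T cell attractants (Ccl2, Ccl12, Ccl4, Cx3cl1, Cxcl16), a neutrophil attractant (Cxcl6), Ccl17, Ccl20 and the receptors Cxcr4, Ccr1 and Ackr3. The fall comprised the scavenger Ackr4 and the interferon-inducible Cxcl11. Groups did not overlap for 12 tested genes that were higher in cirrhosis (11.5% of all protein coding genes tested) and for 2 that were lower (9.08%). Without cirrhosis replicate 5, 17 of 36 tested genes were DEG (32.5% of all protein coding genes tested). The count was 9 of 33 without replicate 3 (12.5%) and 8 of 32 without replicate 4 (13%). Whole liver was sequenced, so fewer cells of a type and less RNA per cell cannot be told apart in any value given here.

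**Figure D1:**
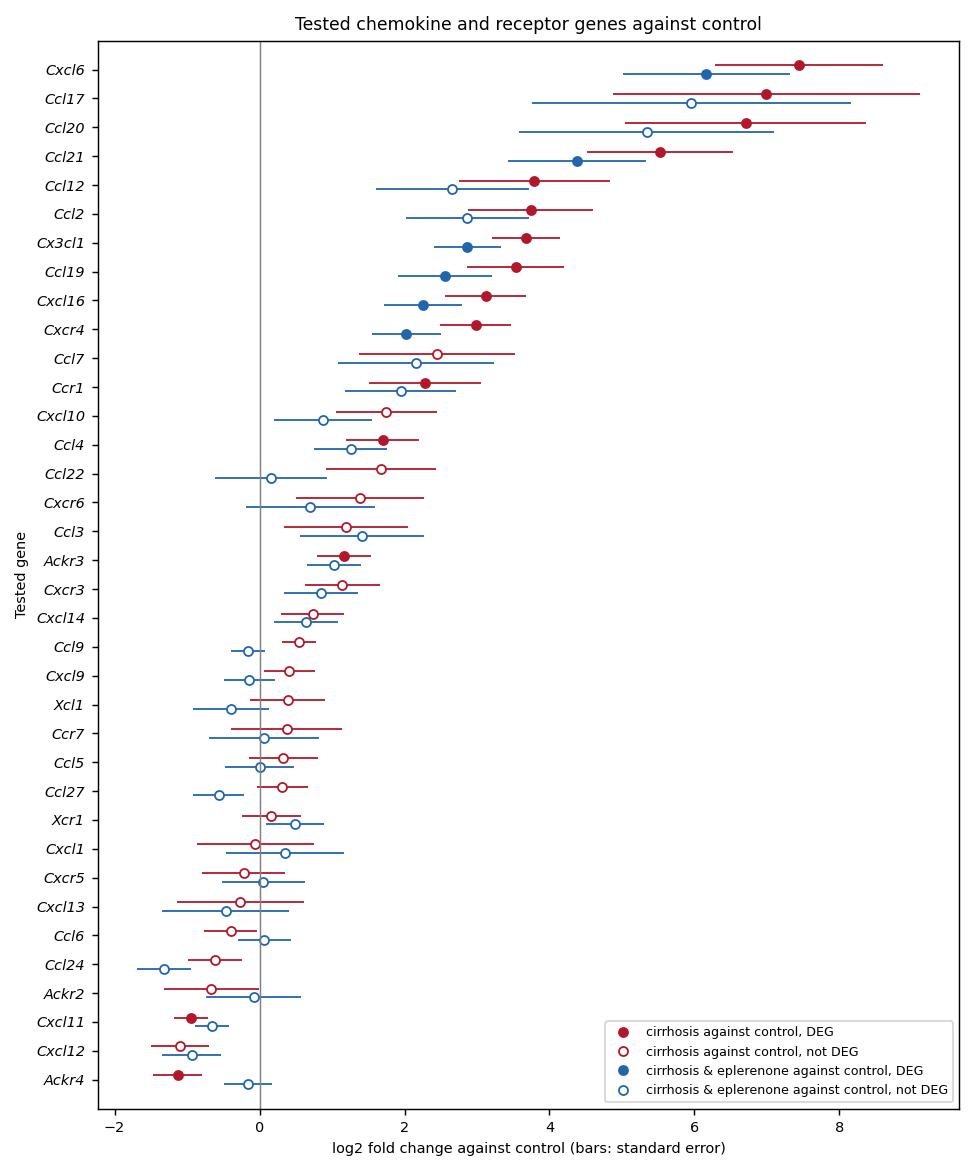
Log2 fold change against control (x axis) of 36 of the 37 tested chemokine and receptor genes (y axis), in red for cirrhosis and in blue for cirrhosis & eplerenone, with standard errors. Filled points are DEG (15 in cirrhosis, 6 with eplerenone), both comparisons share the 4 controls, and the fitted values of Cxcl6, Ccl17 and Ccl20, with 0 to 2 control reads, depend on the prior count of the fit.

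Lymphoid homing was led by Ccl21, which draws T cells and dendritic cells through the receptor CCR7. Ccl21 was at 10.4, 3.87, 9.34 and 4.07 FPM in the 4 controls, at 368, 249, 566, 382 and 31.5 FPM in the 5 cirrhosis livers and at 83.3, 14.6, 378, 31.5 and 213 FPM in the 5 cirrhosis & eplerenone livers. The lowest cirrhosis rat, replicate 5 at 31.5 FPM, was still above the highest control. The means were 6.93 ± 3.44 FPM (SD, n = 4) in control and 319.5 ± 197 FPM (SD, n = 5) in cirrhosis (log2FC 5.53 ± 1.01 (SE), edgeR FDR 0.00279). Ccl19, the other CCR7 ligand, was at 0.603, 0.751, 0.671 and 1.27 FPM in the 4 controls, at 13.7, 4.20, 18.2, 9.79 and 2.14 FPM in the 5 cirrhosis livers and at 2.25, 2.13, 11.2, 3.72 and 5.02 FPM in the 5 cirrhosis & eplerenone livers. No cirrhosis rat overlapped the controls, although replicates 2 and 5 were well below the other 3. Ccl19 rose in cirrhosis (log2FC 3.54 ± 0.67 (SE), edgeR FDR 0.00343).

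Their receptor Ccr7 was at 0.231 to 0.763 FPM in control and 0 to 1.13 FPM in cirrhosis, and the groups overlapped (log2FC 0.37 ± 0.76 (SE)). Ackr4, the atypical receptor that takes up CCL19 and CCL21, went the opposite way. Ackr4 was at 10.4, 7.34, 7.32 and 9.60 FPM in the 4 controls, at 6.60, 2.41, 2.21, 3.28 and 5.29 FPM in the 5 cirrhosis livers and at 8.27, 8.76, 4.33, 10.6 and 6.99 FPM in the 5 cirrhosis & eplerenone livers. Every cirrhosis rat was below every control, and 4 of the 5 cirrhosis & eplerenone rats lay above the highest cirrhosis rat. Ackr4 fell in cirrhosis (log2FC -1.13 ± 0.33 (SE), edgeR FDR 0.0293), a call that was lost with total counts in place of TMM and kept in 8 of 14 fits that each left out 1 rat. Cxcl13, which guides B cells, was at 0.381 to 1.91 FPM in control and 0.0408 to 2.97 FPM in cirrhosis, and its receptor Cxcr5 at 0.462 to 0.763 FPM and 0.216 to 1.02 FPM; neither was DEG.

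Markers of cells that make or follow these ligands were read in the same rats, and their part in the result was not tested. Here and below, marker counts in cirrhosis stand beside 13.8% higher and 6.72% lower of all protein coding genes tested. T cell markers were DEG for 4 of 6 genes, all higher (Cd3d, Cd3e, Cd3g and Cd5, with Cd4 and Cd8a not called), and their summed level was 8.56 to 16.1 FPM in control and 13.3 to 28.4 FPM in cirrhosis. None of the 4 tested B and plasma cell markers was DEG, and the whole list summed to 5.61 to 21.9 FPM and 5.59 to 48.9 FPM. Dendritic cell markers rose for 2 of 4 (Cd83 and Flt3), with sums of 6.01 to 7.81 FPM and 16.24 to 18.8 FPM. Of 6 lymphatic endothelium markers, Mmrn1 and Pdpn rose and Prox1, which hepatocytes express too, fell. The lymphatic sum was 142 to 183 FPM in control and 92.6 to 120.0 FPM in cirrhosis. A sum is weighted to the genes with the highest FPM, and here it ran against Mmrn1 and Pdpn. The lymphatic sum, here and below, is therefore no measure of lymphatic cell number.

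Of 13 tested genes of monocyte and T cell recruitment, 6 were DEG in cirrhosis, all higher, beside 13.8% of all protein coding genes tested. They are 5 ligands and the receptor Ccr1. Cx3cl1 (fractalkine) is anchored in the membrane of endothelium and epithelium and binds CX3CR1. Cx3cl1 was at 0.965, 0.520, 0.915 and 0.445 FPM in the 4 controls, at 8.43, 12.4, 11.0, 10.1 and 3.75 FPM in the 5 cirrhosis livers and at 5.06, 2.38, 9.42, 3.67 and 5.57 FPM in the 5 cirrhosis & eplerenone livers. The groups of control and cirrhosis did not overlap, and it had the smallest FDR of the 37 genes (log2FC 3.67 ± 0.47 (SE), edgeR FDR 0.000528). Its receptor Cx3cr1 had too few reads for the test, but all 5 cirrhosis rats (0.359 to 1.14 FPM) and all 5 cirrhosis & eplerenone rats (0.282 to 1.25 FPM) were above the 4 controls (0 to 0.191 FPM).

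Cxcl16, another membrane-anchored chemokine and the ligand of CXCR6, was at 3.56, 3.29, 4.82 and 2.16 FPM in the 4 controls, at 19.3, 28.3, 28.8, 63.5 and 10.6 FPM in the 5 cirrhosis livers and at 9.96, 6.07, 35.6, 13.5 and 17.3 FPM in the 5 cirrhosis & eplerenone livers. Cirrhosis replicate 4 had the highest level of all 14 rats, and replicate 5 was the lowest of its group, yet above all controls. Cxcl16 rose (log2FC 3.12 ± 0.56 (SE), edgeR FDR 0.00251), while Cxcr6 was at 0.121 to 0.636 FPM in control and 0 to 1.33 FPM in cirrhosis and was not DEG (edgeR FDR 0.262).

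Ccl2 (MCP-1) and Ccl12 both act on the monocyte receptor CCR2. Ccl2 was at 0, 0.231, 0.183 and 0.381 FPM in the 4 controls, at 1.61, 3.10, 2.75, 4.25 and 1.90 FPM in the 5 cirrhosis livers and at 0.664, 0.125, 4.04, 0.903 and 1.58 FPM in the 5 cirrhosis & eplerenone livers. All 5 cirrhosis rats exceeded the highest control by a wide margin, replicate 5 among them, and Ccl2 rose (log2FC 3.74 ± 0.86 (SE), edgeR FDR 0.00919). Ccl12 was at 0.121, 0, 0.0610 and 0.0636 FPM in the 4 controls, at 0.499, 1.51, 1.13, 1.23 and 0.238 FPM in the 5 cirrhosis livers and at 0, 0.125, 1.09, 0.395 and 0.437 FPM in the 5 cirrhosis & eplerenone livers. The level is low, with 4 reads over all controls and 95 over the cirrhosis rats, but the groups were separate (log2FC 3.79 ± 1.04 (SE), edgeR FDR 0.0214). Ccl12 kept the call in 7 of 10 fits without 1 rat in which it was tested. The neighbouring CCR2 ligand Ccl7 was at 0.0603 to 0.231 FPM in control and 0 to 1.29 FPM in cirrhosis, overlapped and was not DEG (log2FC 2.45 ± 1.08 (SE), edgeR FDR 0.112).

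Ccl4 (MIP-1 beta), an attractant of monocytes and T cells, was at 0.422, 0.520, 0.793 and 0.636 FPM in the 4 controls, at 1.55, 1.35, 3.56, 2.36 and 0.892 FPM in the 5 cirrhosis livers and at 0.715, 0.625, 1.82, 2.03 and 1.91 FPM in the 5 cirrhosis & eplerenone livers. The cirrhosis rats lay above the controls by a narrow gap at replicate 5, and Ccl4 rose (log2FC 1.70 ± 0.51 (SE), edgeR FDR 0.0299), a call kept in 8 of 14 fits that each left out 1 rat. Ccl3 and Ccl5, attractants of the same cells, were not DEG, with log2FC 1.19 ± 0.86 (SE) and 0.33 ± 0.48 (SE). Ccr1, a receptor of monocytes and neutrophils, was at 0.0603, 0.289, 0.549 and 0.890 FPM in the 4 controls, at 0.443, 3.83, 0.916, 2.25 and 3.51 FPM in the 5 cirrhosis livers and at 2.66, 1.56, 2.55, 0.282 and 1.58 FPM in the 5 cirrhosis & eplerenone livers. Cirrhosis replicate 1 fell inside the control range and replicate 3 barely passed it. Ccr1 was DEG by a small margin (log2FC 2.29 ± 0.77 (SE), edgeR FDR 0.0482) and kept the call in 3 of 14 fits that each left out 1 rat.

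Ccl9 and Ccl6 are rodent chemokines that bind CCR1. Ccl9 was at 699, 764, 605 and 744 FPM in the 4 controls, at 902, 1046, 1383, 1199.7 and 600.0 FPM in the 5 cirrhosis livers and at 796, 679, 493, 541 and 643 FPM in the 5 cirrhosis & eplerenone livers. In cirrhosis 4 of 5 rats were above every control and replicate 5 was below every control, and Ccl9 passed in DESeq2 alone (log2FC 0.55 ± 0.24 (SE), edgeR FDR 0.109, DESeq2 FDR 0.0462). Without cirrhosis replicate 5 it was DEG, at log2FC 0.69 and edgeR FDR 0.0231, and it was called in 1 of 14 fits that each left out 1 rat. Ccl6 was at 53.2 to 110.4 FPM in control and 20.6 to 96.7 FPM in cirrhosis and was not DEG (log2FC -0.40 ± 0.37 (SE)).

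Macrophage markers were read beside these genes. All 4 scar macrophage markers (Cd9, Gpnmb, Spp1, Trem2) rose, with a summed level of 10.3 to 15.1 FPM in control and 33.0 to 217 FPM in cirrhosis. Of 4 Kupffer cell markers 1, Cd163, fell, and the sum was 161 to 289 FPM in control and 13.5 to 214 FPM in cirrhosis. NK cell markers rose for 1 of 4 (Nkg7), at sums of 4.26 to 5.90 FPM and 4.32 to 15.5 FPM. Their part in the chemokine levels was not tested.

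**Figure D2:**
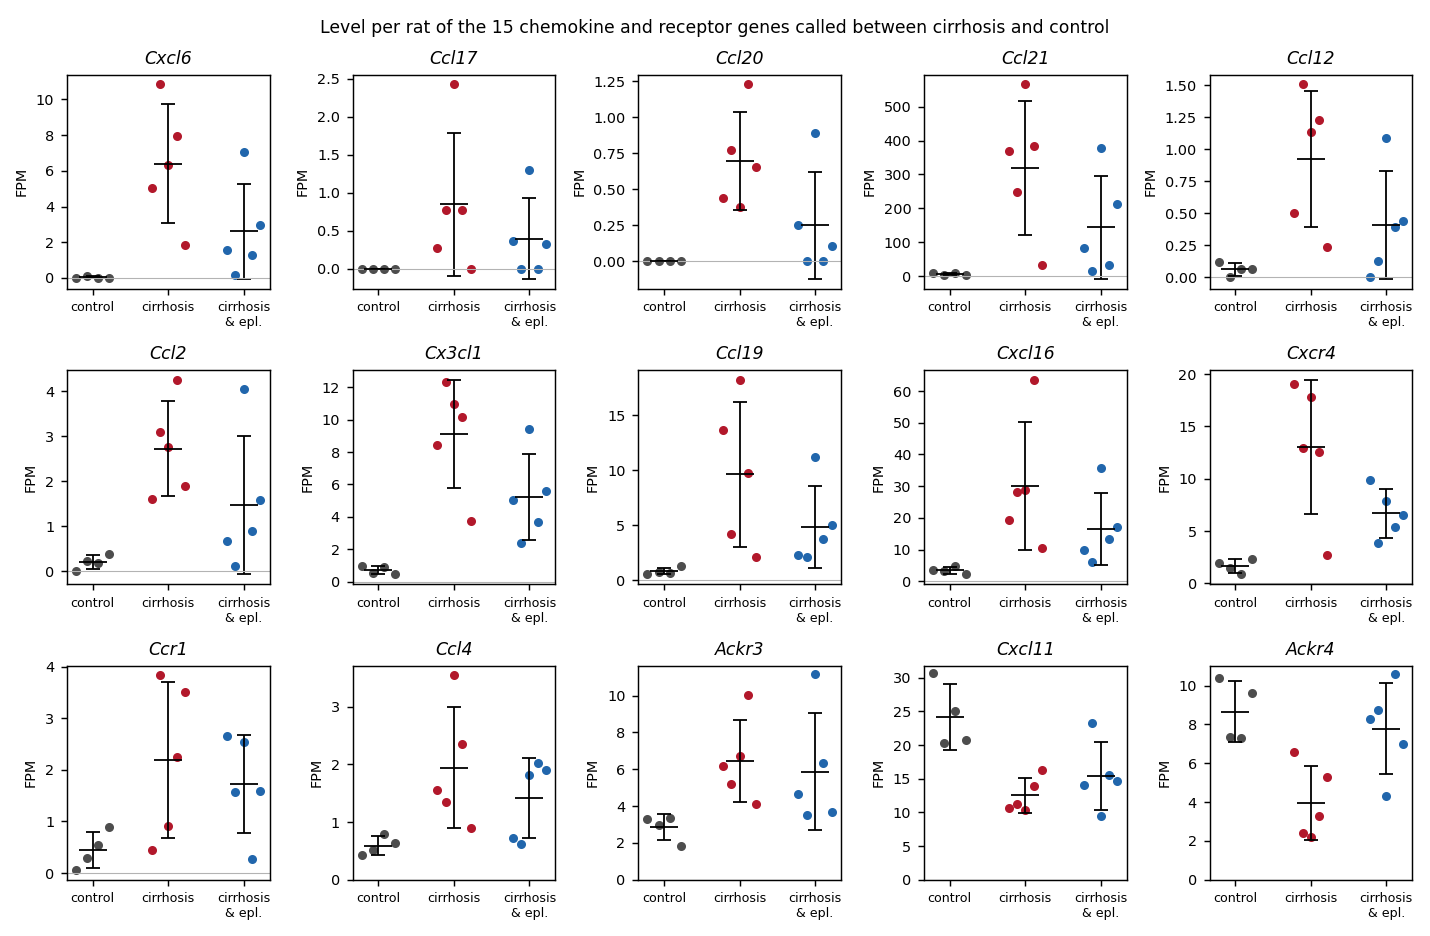
Level in FPM (y axes, a separate linear scale for each gene) in every rat for the 15 genes that were DEG between cirrhosis and control, with points for rats and bars for the mean ± SD of 4 controls, 5 cirrhosis and 5 cirrhosis & eplerenone (epl.) rats. The control mean is the lowest for the 13 genes that rose and the highest for Cxcl11 and Ackr4. Single CCl4-treated rats lie within the control range for some genes, such as Ccr1, Ccl2, Ccl12 and Cxcl11, and most cirrhosis & eplerenone rats lie near the controls for Ackr4.

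Neutrophil attractants were represented above all by Cxcl6, a CXC ligand of CXCR1 and CXCR2. Cxcl6 was at 0, 0.116, 0 and 0 FPM in the 4 controls, at 5.04, 10.8, 6.31, 7.94 and 1.84 FPM in the 5 cirrhosis livers and at 1.58, 0.188, 7.03, 1.30 and 2.95 FPM in the 5 cirrhosis & eplerenone livers. A single control had any read, and each cirrhosis rat was far above it. Over the groups, 660 reads in cirrhosis stand against 2 in control, a ratio of 223.5 with a 95% counting interval of 61.6 to 1849.6. Cxcl6 was DEG (edgeR FDR 0.00128).

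Its close relative Cxcl1 was at 1.73 to 18.5 FPM in control and 3.99 to 15.6 FPM in cirrhosis, so that all cirrhosis rats lay within the range of the controls (log2FC -0.06 ± 0.81 (SE), edgeR FDR 0.967). Cxcl2 and Cxcl3 had too few reads for the test. Cxcl3 had no read in control and 0.297 to 0.776 FPM in cirrhosis, at least 11.1-fold higher against a floor of 3 counts over the control group. The receptor Cxcr2 reached at most 0.526 FPM in any rat. Neutrophil markers were DEG for all 3 tested genes (S100a8, S100a9 and Csf3r), higher, with Mpo not tested, and the summed level was 0.572 to 1.45 FPM in control and 1.92 to 19.5 FPM in cirrhosis. Their part in the Cxcl6 level was not tested.

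Many inflammatory chemokine genes carry sites for the transcription factor NF-kB close to their start, so RefSeq promoters (GRCr8, 250 bases before to 50 after the gene start) were searched on both strands for its consensus. A promoter was matched for 42 of the 55 genes, and 9 of them held the consensus, beside 7.51% of 33469 promoters. It was present in 2 of 11 genes that rose (Cxcl6 and Ccl20), 1 of 2 that fell (Cxcl11) and 4 of 17 tested genes that were not DEG (Ccl7, Ccl9, Cxcl1 and Cxcl10). No promoter was matched for the risen genes Ccl2 and Ccl4, so these counts leave them out. The 150 bases before the start are printed for the 3 DEG with the consensus, for Cxcl1, which carries the same 11-base run as Cxcl6 and was not DEG, and for Ccl21, which rose strongly and holds none. Capitals mark the consensus, and where matches overlap, as in Cxcl6 and Cxcl1, they mark the joint run.
Cxcl6, chr14:17596418-17596567, minus strand: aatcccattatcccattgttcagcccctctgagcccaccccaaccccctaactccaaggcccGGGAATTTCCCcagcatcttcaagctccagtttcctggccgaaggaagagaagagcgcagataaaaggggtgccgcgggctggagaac
Ccl20, chr9:91837009-91837158, plus strand: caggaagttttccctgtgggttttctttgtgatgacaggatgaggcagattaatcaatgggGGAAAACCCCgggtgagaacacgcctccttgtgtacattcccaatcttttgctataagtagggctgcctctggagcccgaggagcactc
Cxcl11, chr14:15973578-15973727, plus strand: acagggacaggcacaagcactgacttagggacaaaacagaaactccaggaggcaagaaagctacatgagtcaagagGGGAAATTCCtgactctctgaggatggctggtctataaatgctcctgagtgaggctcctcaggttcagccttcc
Cxcl1, chr14:17479322-17479471, minus strand: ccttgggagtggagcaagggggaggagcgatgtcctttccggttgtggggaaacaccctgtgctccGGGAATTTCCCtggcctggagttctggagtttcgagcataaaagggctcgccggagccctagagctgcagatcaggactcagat
Ccl21, chr5:61777516-61777665, minus strand: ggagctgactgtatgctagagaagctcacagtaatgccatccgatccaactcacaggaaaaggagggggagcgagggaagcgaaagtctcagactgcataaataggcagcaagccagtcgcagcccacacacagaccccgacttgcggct
The matches begin 88, 89, 74 and 84 bases before the start in Cxcl6, Ccl20, Cxcl11 and Cxcl1. A match is a run of letters and no evidence of binding, and the promoter build differs from the rn6 build of the counts.

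Of the 3 interferon-inducible ligands of CXCR3, Cxcl11 was DEG. Cxcl11 was at 30.7, 20.3, 25.0 and 20.7 FPM in the 4 controls, at 10.7, 11.3, 10.4, 13.9 and 16.4 FPM in the 5 cirrhosis livers and at 14.0, 23.3, 9.42, 15.5 and 14.7 FPM in the 5 cirrhosis & eplerenone livers. All cirrhosis rats were below all controls, and Cxcl11 fell (log2FC -0.95 ± 0.23 (SE), edgeR FDR 0.0132). Cxcl10 was at 1.53 to 3.44 FPM in control and 2.20 to 12.1 FPM in cirrhosis, with replicate 5 inside the control range, and passed in DESeq2 alone (log2FC 1.75 ± 0.69 (SE), edgeR FDR 0.0805, DESeq2 FDR 0.0272). Without that rat it was DEG, at log2FC 1.99 and edgeR FDR 0.0350, and it was called in 2 of 14 fits that each left out 1 rat. Cxcl9 was at 9.47 to 15.3 FPM and 11.9 to 26.7 FPM and was not DEG (log2FC 0.41 ± 0.36 (SE)). Their receptor Cxcr3, carried by activated T and NK cells, was higher in all 5 cirrhosis rats (0.970 to 1.72 FPM) than in all 4 controls (0.254 to 0.854 FPM) but was not DEG (edgeR FDR 0.12). Interferon gamma (Ifng), the main inducer of these ligands, had no read in any sample, and Irf1 was not DEG.

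In the Cxcl12 axis both receptors rose, and the ligand passed as lower in DESeq2 and not in edgeR. Cxcr4, found on most leukocytes, was at 1.93, 1.44, 0.854 and 2.35 FPM in the 4 controls, at 19.1, 12.9, 17.8, 12.6 and 2.74 FPM in the 5 cirrhosis livers and at 9.86, 3.82, 7.88, 5.42 and 6.50 FPM in the 5 cirrhosis & eplerenone livers. Cirrhosis replicate 5, at 2.74 FPM, was just above the highest control at 2.35 FPM and far below the other 4. Cxcr4 rose (log2FC 2.98 ± 0.49 (SE), edgeR FDR 0.00168). Ackr3, which scavenges CXCL12, was at 3.32, 2.95, 3.36 and 1.84 FPM in the 4 controls, at 6.15, 5.18, 6.74, 10.0 and 4.10 FPM in the 5 cirrhosis livers and at 4.65, 3.50, 11.2, 6.32 and 3.66 FPM in the 5 cirrhosis & eplerenone livers. Cirrhosis and control did not overlap (log2FC 1.17 ± 0.37 (SE), edgeR FDR 0.0402), and the call was kept in 6 of 14 fits that each left out 1 rat.

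Cxcl12 was at 181, 201, 226 and 172 FPM in the 4 controls, at 61.9, 83.3, 47.9, 76.04 and 187 FPM in the 5 cirrhosis livers and at 55.6, 161, 53.9, 166 and 72.1 FPM in the 5 cirrhosis & eplerenone livers. In cirrhosis 4 rats lay at 47.9 to 83.3 FPM and replicate 5 at 187 FPM, inside the control range. Over all 5 rats Cxcl12 was not DEG (log2FC -1.10 ± 0.40 (SE), edgeR FDR 0.0651, DESeq2 FDR 0.0325). Without replicate 5 it was lower at log2FC -1.53 with edgeR FDR 0.00608. In that fit 32.5% of all protein coding genes tested were DEG, beside 20.6% with all rats. Cxcl12 was called in 1 of 14 fits that each left out 1 rat. The cirrhosis & eplerenone rats fell on both sides as well, with replicates 2 and 4 at 161 and 166 FPM and the others at 53.9 to 72.1 FPM. Sinusoidal endothelium and stellate cells are known sources of CXCL12. Of 4 sinusoidal markers Fcgr2b and Oit3 fell, with sums of 132 to 158 FPM in control and 21.2 to 108 FPM in cirrhosis. Of 5 stellate cell and myofibroblast markers Acta2, Col1a1 and Col3a1 rose, with sums of 135 to 232 FPM and 247 to 462 FPM, and the part of either cell type was not tested.

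Among chemokines of type 2 responses, Ccl17 and Ccl22, ligands of CCR4, lie close to Cx3cl1 on chromosome 19 (RefSeq GRCr8). Ccl17 was at 0, 0, 0 and 0 FPM in the 4 controls, at 0.277, 0.775, 2.43, 0.769 and 0 FPM in the 5 cirrhosis livers and at 0.358, 0, 1.29, 0 and 0.328 FPM in the 5 cirrhosis & eplerenone livers. It had no read in any control and in cirrhosis replicate 5, and was at least 19.0-fold higher in cirrhosis against a floor of 3 counts over the control group. Ccl17 was DEG (edgeR FDR 0.0378) but kept the call in 5 of 10 fits without 1 rat in which it was tested. Ccl22 was at 0.482, 0.347, 0.488 and 0 FPM in the 4 controls, at 0.832, 1.14, 2.10, 1.02 and 0.238 FPM in the 5 cirrhosis livers and at 0.102, 0.188, 0.647, 0.395 and 0.492 FPM in the 5 cirrhosis & eplerenone livers. Cirrhosis replicates 1 to 4 were above all controls and replicate 5 was not (log2FC 1.67 ± 0.76 (SE), edgeR FDR 0.123). Ccl24 (eotaxin-2), an eosinophil attractant, was at 7.63 to 12.5 FPM in control, 3.33 to 12.2 FPM in cirrhosis and 2.94 to 6.61 FPM with eplerenone. It overlapped between control and cirrhosis (log2FC -0.61 ± 0.37 (SE), edgeR FDR 0.231) but not between control and cirrhosis & eplerenone.

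Ccl20, which bile duct epithelium can make and which draws CCR6-bearing cells, was at 0, 0, 0 and 0 FPM in the 4 controls, at 0.443, 0.775, 0.377, 1.23 and 0.654 FPM in the 5 cirrhosis livers and at 0.255, 0, 0.889, 0 and 0.109 FPM in the 5 cirrhosis & eplerenone livers. All cirrhosis rats had reads and no control had one, at least 15.6-fold higher in cirrhosis, and Ccl20 was DEG (edgeR FDR 0.0172). Ccl27, a ligand of CCR10, was at 5.37, 4.33, 4.15 and 2.35 FPM in the 4 controls, at 5.04, 4.08, 7.76, 4.30 and 4.04 FPM in the 5 cirrhosis livers and at 1.48, 2.31, 3.03, 2.09 and 4.81 FPM in the 5 cirrhosis & eplerenone livers. Its groups overlapped against control (log2FC 0.32 ± 0.35 (SE)). Cxcl14 was also not DEG (log2FC 0.73 ± 0.44 (SE)). All 4 cholangiocyte markers (Epcam, Krt7, Krt19, Sox9) rose beside Ccl20, with sums of 12.2 to 18.4 FPM in control and 37.4 to 88.3 FPM in cirrhosis, and their part was not tested. None of the 5 hepatocyte markers was DEG, with sums of 132462 to 147426 FPM and 70394 to 138480.0 FPM. The highest cirrhosis sum, 138480.0 FPM, was that of replicate 5. That rat also had the lowest cirrhosis sum of cholangiocyte, T cell, B and plasma cell, scar macrophage and stellate cell markers. For the other cell types its sum lay inside the range of the other cirrhosis rats.

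Ligands were set beside their receptors in 24 known pairs, a list that is not complete, and 11 had both partners tested. In 4 pairs the ligand alone was DEG between cirrhosis and control, in 3 the receptor alone, in 4 neither and in 0 both. With so few pairs, the last count says nothing of whether partners moved together. The 4 ligand pairs were Ccl21 and Ccl19 with Ccr7, Cxcl16 with Cxcr6 and Cxcl11 with Cxcr3, and the 3 receptor pairs were Ccl3 with Ccr1 and Cxcl12 with Cxcr4 and with Ackr3. Receptors of 3 further risen ligands, Ccr4 for Ccl17, Ccr6 for Ccl20 and Cx3cr1 for Cx3cl1, had too few reads for the test.

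The 18 untested genes had few reads, the highest value in any rat being 1.25 FPM for Cx3cr1, which is 31 reads. In 4 of them (Cx3cr1, Cxcl3, Cxcl17 and Ccr3) all 5 cirrhosis rats were above all 4 controls. The share of such genes among all untested genes was not computed, so this count is a description. Ccr3, the eotaxin receptor, had no read in control and 33 in cirrhosis, at least 7.45-fold higher, and Cxcl17 had none and 22, at least 4.97-fold higher. Ccl28 likewise had none in control and 23 in cirrhosis, at least 5.19-fold higher, though cirrhosis replicate 5 had none. Intervals and floors on reads cover counting error only.

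With eplerenone, 6 of the 37 tested genes were DEG against control, all higher, beside 5.33% of all protein coding genes tested (4.5% higher, 0.829% lower). They were Cxcl6, Ccl21, Cx3cl1, Ccl19, Cxcl16 and Cxcr4, each of which was also DEG in cirrhosis, and both comparisons share the controls. Ccl21 rose to 144 ± 152 FPM (SD, n = 5) (log2FC 4.38 ± 0.95 (SE), edgeR FDR 0.016). Cx3cl1 rose to 5.22 ± 2.66 FPM (SD, n = 5) (log2FC 2.87 ± 0.46 (SE), edgeR FDR 0.0041). Ccl19 (log2FC 2.56 ± 0.65 (SE), edgeR FDR 0.0331), Cxcl16 (log2FC 2.25 ± 0.54 (SE), edgeR FDR 0.025) and Cxcr4 (log2FC 2.02 ± 0.48 (SE), edgeR FDR 0.0234) followed. Cxcl6 had 285 reads against 2 in control, a ratio of 97.6 with a 95% counting interval of 26.8 to 810.1 (edgeR FDR 0.00873). Cxcl6 and Cx3cl1 kept this call in all 14 fits that each left out 1 rat. Ccl21 kept it in 12, Cxcl16 in 10, and Ccl19 and Cxcr4 in 8 each.

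The other 9 genes that were DEG in cirrhosis were not DEG against control with eplerenone, namely Ccl17, Ccl20, Ccl12, Ccl2, Ccr1, Ccl4, Ackr3, Ackr4 and Cxcl11. Both genes without a control read had reads in 3 of 5 treated rats, Ccl17 at least 10.3-fold and Ccl20 at least 6.62-fold higher than control. Ccl2 was at log2FC 2.86 ± 0.85 (SE) (edgeR FDR 0.0641), Ackr3 at 1.03 ± 0.37 (SE) (edgeR FDR 0.124), Cxcl11 at -0.65 ± 0.23 (SE) (edgeR FDR 0.122) and Ackr4 at -0.15 ± 0.33 (SE) (edgeR FDR 0.856). Groups did not overlap for 7 tested genes that were higher (6.68% of all protein coding genes tested), which are the 6 DEG and Ackr3. They did not overlap for 2 that were lower (4.39%), Ccl24 and Cxcl12. Ccl24 passed in DESeq2 alone (log2FC -1.32 ± 0.37 (SE), edgeR FDR 0.0518, DESeq2 FDR 0.0121), as did Ccl2, Ccl17 and Ccl20 (DESeq2 FDR 0.00592, 0.0314 and 0.0285). Without cirrhosis & eplerenone replicate 3, Cxcl6, Ccl21 and Cx3cl1 were DEG (3 of 32 tested, 2.67% of all protein coding genes tested). The count was 3 of 39 without control replicate 2 (2.85%), 2 of 39 without replicate 3 (2.15%) and 2 of 39 without replicate 5 (1.5%).

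Cirrhosis & eplerenone was also compared directly with cirrhosis. The study's main rule for eplerenone sensitive genes was another, and rested on both comparisons against control. It took genes that were DEG in cirrhosis at an absolute log2FC of at least 1. With eplerenone these had to be no longer DEG against control, at an absolute log2FC of at most 1. No chemokine or receptor gene was DEG between cirrhosis & eplerenone and cirrhosis (0 of 37, beside 0.0147% of all protein coding genes tested, which is 2 genes, both higher). DESeq2 alone called 0 of the 37 too, beside 0.492%. Without adjustment, 6 of the 37 genes had an edgeR p under 0.05 (14.5% of all protein coding genes tested), 5 lower and 1 higher with eplerenone (7.62% and 6.84%). These were Ccl9 (log2FC -0.70 ± 0.22 (SE)), Ackr4 (0.98 ± 0.32 (SE)), Ccl27 (-0.88 ± 0.33 (SE)), Cxcr4 (-0.96 ± 0.41 (SE)), Ccl22 (-1.52 ± 0.69 (SE)) and Cx3cl1 (-0.80 ± 0.37 (SE)), with edgeR FDR between 0.312 and 0.341. For Ccl9, 4 of 5 cirrhosis rats lay above every eplerenone-treated rat, and cirrhosis replicate 5 lay among the treated ones. For Ackr4 the reverse held, since 4 of 5 treated rats were above every cirrhosis rat and replicate 3 was not.

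All 13 genes that had risen in cirrhosis had a lower fitted level with eplerenone, with log2FC from -1.37 to -0.13 and a median of -0.96, and both genes that had fallen had a higher one, at 0.30 for Cxcl11 and 0.98 for Ackr4. Over all protein coding genes tested, 51% had a log2FC above 0. These genes were chosen on cirrhosis values that enter this comparison too, so the shared direction is a description. Ranges overlapped between the treated and untreated cirrhosis groups for every tested gene, as they did for all but 0.418% of protein coding genes higher and 0.521% lower. Ccl21 was at log2FC -1.15 ± 0.75 (SE), Cxcl6 at -1.28 ± 0.66 (SE) and Cxcl16 at -0.87 ± 0.46 (SE), with edgeR FDR 0.452, 0.368 and 0.379.

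A few rats reached into the range of the other group. Cirrhosis replicate 5 had the lowest level of its group in 10 of the 13 genes that rose, and cirrhosis & eplerenone replicate 3 had the highest of its group in 10 of 13. That treated rat was at or above the lowest of cirrhosis replicates 1 to 4 in 12 of the 13 genes, whereas treated replicates 1, 2, 4 and 5 were so in 2, 1, 2 and 4. Replicate 2 of the treated group was the lowest in 11 of 13. All 13 genes were above every control in treated replicates 3 and 5, and 9 to 11 of them in the other 3.

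**Figure D3:**
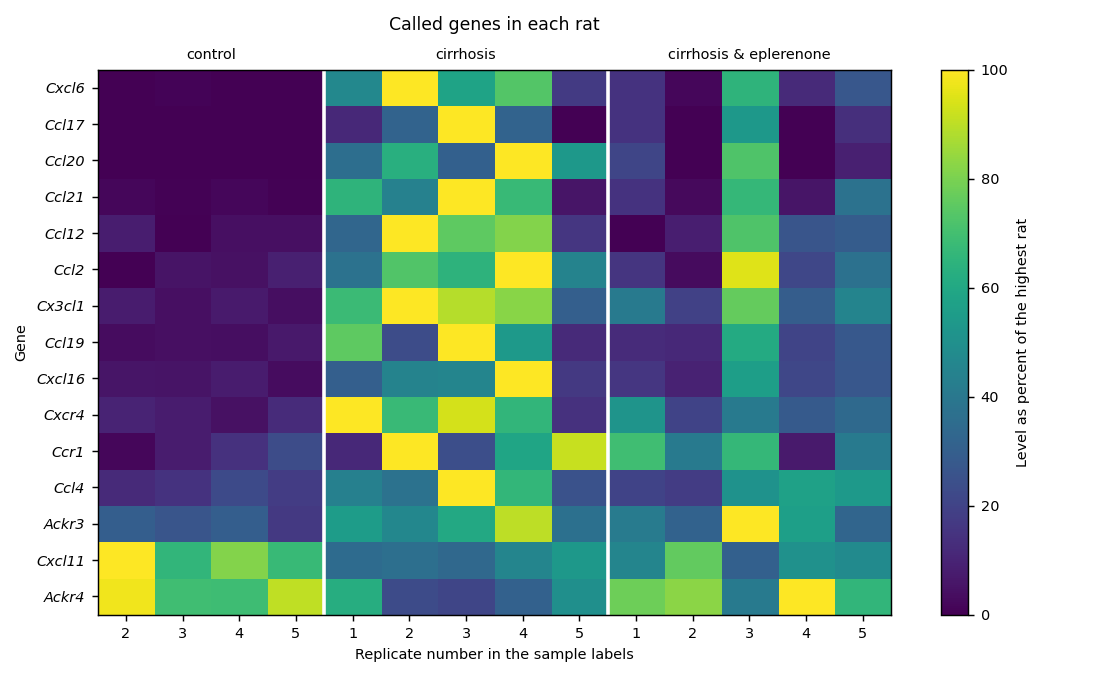
Level of the 15 genes DEG between cirrhosis and control (rows) in each of the 14 rats (columns, by replicate number), as a percent of the highest rat for that gene. Cirrhosis replicate 5 is dark in most risen genes like the treated rats, cirrhosis & eplerenone replicate 3 is bright like the cirrhosis rats, and both bottom rows run the other way.

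Leaving out both of these rats gave 8 of 32 tested genes DEG between cirrhosis & eplerenone and cirrhosis, beside 9.22% of all protein coding genes tested. Ccl21, Ccl19, Cxcl6, Cx3cl1, Cxcl16, Cxcr4 and Ccl9 were then lower with eplerenone (7 genes, background 4.8%) and Ackr4 higher (background 4.42%). Their log2FC were -2.21 for Ccl21, -1.82 for Ccl19, -1.34 for Cx3cl1, -0.79 for Ccl9 and 1.24 for Ackr4. On the first principal component, the rats left out are the cirrhosis rat nearest to the controls and the treated rat nearest to cirrhosis replicates 1 to 4. They were left out because they stood apart, so these calls are a description.

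The animal labels carry a prefix, 13 or 16 in controls and 15 or 20 in CCl4-treated rats, whose meaning is not stated. Prefix and CCl4 treatment cannot be told apart, but both treated groups hold both prefixes, with 3 cirrhosis and 2 cirrhosis & eplerenone rats under 15 and 2 and 3 under 20. Within prefix 15, 12 of the 13 risen genes were lower with eplerenone, at a median log2FC of -1.97 (50.7% of all protein coding genes tested were lower, median -0.02). Within prefix 20, which holds both libraries that stood apart, 8 of 13 were lower, at a median of -0.17 (47.4% of all, median 0.02). Ccl21 was at -3.04 within prefix 15 and 0.01 within prefix 20, Ccl19 at -2.49 and 0.17, and Cxcl6 at -3.05 and -0.36. Cxcl16 was at -1.69 and -0.73, Ccl20 at -1.97 and -1.40, and Ackr4 at 1.16 and 0.79, in each case with the same sign. Ccl9, at -0.62 and -0.67, differed least between prefixes among the genes named for this comparison. In a test of the difference between prefixes, 0 of the 37 genes reached an edgeR FDR below 0.05 and 7 had an unadjusted edgeR p under 0.05, beside 12.1% of all protein coding genes tested.

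**Figure D4:**
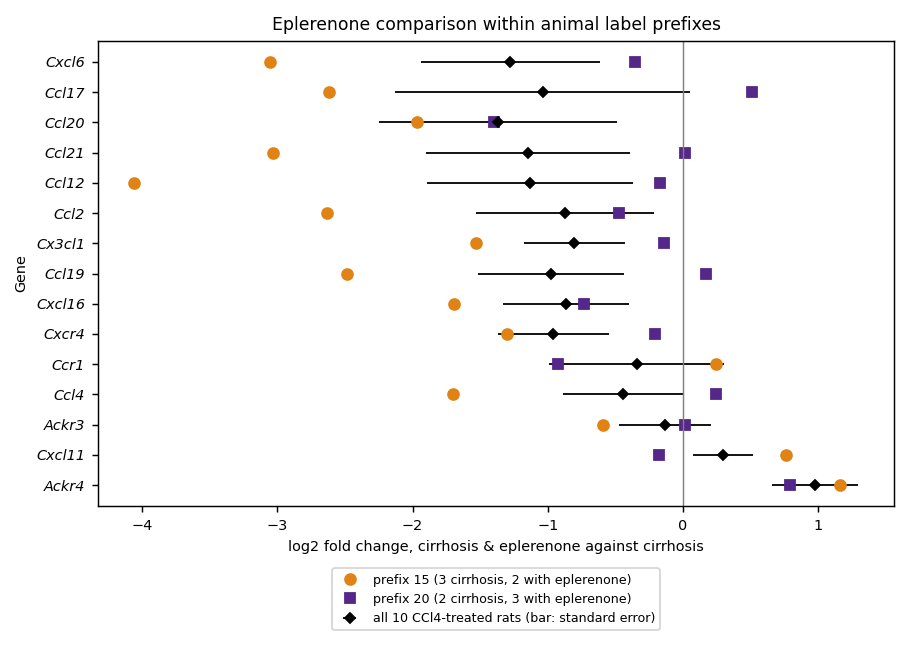
Log2 fold change between cirrhosis & eplerenone and cirrhosis (x axis) of the 15 genes DEG in cirrhosis (y axis), over all 10 CCl4-treated rats with standard errors (black) and within animal label prefix 15 (orange) or 20 (purple) without error bars. Orange points lie left of 0 for 12 of the 13 risen genes, and purple points lie nearer to 0 for every gene shown except Ccr1.

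Genes of the wider pathway were taken from lists set up for this purpose. Of 3 chemokines named outside the symbol rule, 2 were tested. Only 1 of them was DEG against control, higher in cirrhosis and with eplerenone (13.8% and 4.5% of all protein coding genes tested). It was Pf4 (CXCL4), which platelets release, at 0.127 to 0.793 FPM in control, 3.69 to 19.5 FPM in cirrhosis and 3.27 to 7.70 FPM with eplerenone. Pf4 rose in cirrhosis (log2FC 4.24 ± 0.53 (SE), edgeR FDR 0.000523) and with eplerenone (log2FC 3.29 ± 0.51 (SE), edgeR FDR 0.00388). The related receptors Ccrl2 and Cmklr1 were not DEG (log2FC 1.35 and 1.07). Of 17 tested signalling genes downstream of chemokine receptors, 8 rose in cirrhosis and 0 fell, with a list median log2FC of 0.94. Of all protein coding genes tested, 13.8% were higher and 6.72% lower. The 8 are Rgs1, which shortens G protein signalling (log2FC 3.95 ± 0.81 (SE), edgeR FDR 0.00525), Coro1a and Was, which shape actin, Rac2, Vav1, Pik3cg, Gnai2 and Arrb2. Gnai2 (log2FC 1.12 ± 0.27 (SE), edgeR FDR 0.0121) and Arrb2 (log2FC 0.94 ± 0.29 (SE), edgeR FDR 0.0328) are used by most cells. With eplerenone only Rgs1 of these 17 was DEG against control (log2FC 3.18 ± 0.80 (SE), edgeR FDR 0.031), beside 5.33% of all protein coding genes tested. Between the treated and untreated cirrhosis groups 0 of the 17 were DEG.

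Genes that process or present chemokines were DEG for 3 of 11 in cirrhosis. The share over all protein coding genes tested, for this list and those that follow, was 20.6% (13.8% higher, 6.72% lower). Mmp12 (log2FC 5.48 ± 0.82 (SE), edgeR FDR 0.00116) and Mmp2 (log2FC 2.30 ± 0.26 (SE), edgeR FDR 0.000458), proteases that cut several chemokines, rose, and Ndst1, which sulphates the heparan chains that hold chemokines on cells, fell (log2FC -1.33 ± 0.40 (SE), edgeR FDR 0.0309). Leukocyte adhesion genes rose for 3 of 10 tested, namely Icam1 (log2FC 0.92 ± 0.17 (SE), edgeR FDR 0.00327), Selplg and Itgb7. Of 11 tested upstream cytokine and NF-kB genes, 5 rose and 1 fell. Relb (log2FC 2.89 ± 0.45 (SE), edgeR FDR 0.00128), Nfkb2 (log2FC 1.74 ± 0.26 (SE), edgeR FDR 0.00116) and Ltb (log2FC 2.78 ± 0.49 (SE), edgeR FDR 0.00233) belong to the lymphotoxin and alternative NF-kB route, which is known to drive Ccl19 and Ccl21 in lymphoid tissue. Ltbr, the lymphotoxin receptor of the same list, was not DEG (log2FC 0.11 ± 0.20 (SE), edgeR FDR 0.7). The part of this route in the Ccl19 and Ccl21 levels was not tested. Nfkbia and Il1b rose too (log2FC 1.06 and 0.95), and Il1a fell (log2FC -1.89). Against control, Relb and Nfkb2 were DEG with eplerenone (log2FC 1.77 and 1.04), as were Mmp12, Mmp2, Icam1 and Selplg, higher, and the heparan sulphate carrier Sdc1, lower (log2FC -0.82). None of the genes in these lists was DEG between cirrhosis & eplerenone and cirrhosis.

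Cell markers in the treated rats were read for the same lists. Of all protein coding genes tested, 4.5% were higher and 0.829% lower with eplerenone against control. Against control with eplerenone, 3 of 4 scar macrophage, 2 of 3 neutrophil, 2 of 4 cholangiocyte and 2 of 4 dendritic cell markers were DEG, all higher, and 0 of 6 T cell markers. Col1a1 and Col3a1 among 5 stellate cell markers and Mmrn1 among 6 lymphatic markers were higher, and 0 sinusoidal, Kupffer, hepatocyte, NK, or B and plasma cell markers were DEG. The T cell sum was 11.9 to 27.6 FPM and the scar macrophage sum 54.0 to 136 FPM with eplerenone. The neutrophil sum was 1.81 to 25.2 FPM, the cholangiocyte sum 32.0 to 75.8 FPM and the lymphatic sum 104 to 169 FPM. No marker was DEG between the treated and untreated cirrhosis groups, and the part of cell numbers in the chemokine levels was not tested.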

How the data were processed

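Liver poly(A) RNA of 14 rats was sequenced, and the authors deposited a single table of raw read counts per gene. Per the labels and the study's methods, paired reads were aligned to rn6 with HISAT2 2.1.0 and counted with featureCounts, a read that mapped to several places being counted at each. Close paralogs can therefore share reads, and use of strand is not given in the sources used here. A control sample with no column in the table was not analysed here.

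All 14 rats entered one fit with 3 groups in edgeR 4.0.16 (quasi-likelihood, TMM, filterByExpr with a smallest count of 10) and in DESeq2 1.42.0 (R 4.3.3). DEG needed a Benjamini-Hochberg FDR below 0.05 in both, as in the study. Groups came from the GEO labels. Each rat is a separate animal. Libraries held 16157491 to 21574767 counted reads, and no pair agreed within sampling noise. Code was tested on simulated counts.

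The genes, lists and tests were chosen with earlier results of these data known. Values in every rat are given for genes DEG against control, the 5 smallest p between the CCl4-treated groups, Ccl21, Ccl2 and the 3 tested genes with the highest mean FPM. Alternatives covered normalization, filters, tools, samples, replicate block and animal label prefix. Some genes are not reported here.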

Additional observations from a re-analysis of the deposited data

Results flagged for a closer look

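In 5 of 55 groups of 4 or 5 rats, over the 19 genes with values in every rat, the highest rat lay far from the others by Dixon's test at the 95% level. The test assumes independent normal values. Levels here include zeros and come from the same rats, so the number of flags cannot be set against a chance rate. Ccl17 in cirrhosis & eplerenone replicate 3 was at 1.29 FPM, against 0 to 0.358 FPM in the other 4. Ccl20 in the same rat was at 0.889 FPM, against 0 to 0.255 FPM. Cxcl12 in cirrhosis replicate 5 was at 187 FPM, against 47.9 to 83.3 FPM in the other 4. Ccl27 in cirrhosis replicate 3 was at 7.76 FPM, against 4.04 to 5.04 FPM. Cxcl6 in control replicate 3 was at 0.116 FPM, which is 2 reads, and at 0 in the other 3, a pattern that is flagged at any count. The first 3 of these values belong to the pair of libraries that stood apart over all genes.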

How the results depend on the processing

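With each of the 14 rats left out in turn, the count of chemokine and receptor genes DEG in cirrhosis against control was 8 to 17 (15 with all rats), and it was 9 without cirrhosis replicate 3 and 8 without replicate 4. Ccl19, Ccl2, Ccl21, Cx3cl1, Cxcl11, Cxcl16, Cxcl6 and Cxcr4 kept the call in all 14 fits, and Ccr1 in 3. With at least 10 counts in every sample, 7 of 18 tested genes were DEG, beside 1937 of 10853 protein coding genes. The median log2FC of those 18 genes was 0.38. Against control with eplerenone the count was 2 to 8 with a rat left out (6 with all) and 10 by DESeq2 alone. Between the treated and untreated cirrhosis groups it was 0 in each of these fits, and 8 with 4 samples per group.

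Over all protein coding genes, DEG in cirrhosis numbered 1317 to 4415 with a rat left out and 4634 with 4 samples per group (2802 with all rats, 1886 higher and 916 lower). Total counts in place of TMM gave 3300, split 2964 higher to 336 lower, since the median log2FC of all genes moved from -0.01 to 0.28. With eplerenone against control (726 with all rats, 613 higher and 113 lower), DEG numbered 208 to 1235 with a rat left out, 1476 by DESeq2 alone, 371 with the strict filter and 1318 by total counts (1261 higher, 57 lower, median moved from 0.01 to 0.32). Between the treated groups (2 with all rats) the number was 0 to 25 with a rat left out, 67 by DESeq2 alone, 1235 with 4 samples per group, 23 within prefix 15 and 0 within prefix 20.

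The replicate number as a block gave 13, 3 and 0 chemokine and receptor genes in the 3 comparisons, and 1688, 260 and 0 DEG over all genes. With that block, Ccl21, Ccl19 and Cxcr4 lost the call between control and cirrhosis & eplerenone. Same-numbered rats of different groups are different animals, and their deviations correlated at -0.333 to 0.187 over 13 pairs, so the numbers do not pair them.

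Directions turned for some genes, and the cause was not tested. For Ackr4 with eplerenone against control (log2FC -0.15 with all rats), total counts gave 0.12, 4 samples per group 0.0022, and leaving out a rat -0.29 to 0.00089. For Ackr3 between the treated groups, leaving out a rat gave -0.53 to 0.10, and prefix 20 gave 0.012. Of the 37 tested genes, 12 had another sign between the treated groups within prefix 20 than over all rats, and 6 within prefix 15. Within prefix 20, Ccl17 was at 0.51, Ccl19 at 0.17, Ccl21 at 0.014, Ccl24 at 0.46, Ccl4 at 0.25, Cxcl11 at -0.18 and Cxcl12 at -0.40. Within prefix 15, Ccr1 was at 0.25. Of the other single-gene values, 1272 kept direction and call, 65 lost a call and 32 gained one. Depth limits the 18 untested genes, where 3 counts stand for 0.121 to 0.191 FPM.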

Other observations

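Several genes too low for the test had reads mainly in CCl4-treated rats. Ccl1, a ligand of CCR8, had 19 reads in cirrhosis and 1 in control, a ratio of 12.9 with a 95% counting interval of 2.05 to 534.7. Cxcl2, a neutrophil attractant, had 18 reads against 2, a ratio of 6.10 (1.46 to 54.2). Ccr6, the receptor of CCL20, had 22 reads in cirrhosis and 27 with eplerenone against 3 in control, with a ratio in cirrhosis of 4.97 (1.49 to 25.9). Intervals cover counting error over pooled rats and leave out the spread between rats.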
